A study of Mus musculus with 79 samples.

Results

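Ces1d, Ces1e, Ces1f, Ces1g and Ces2e are 5 of the mouse carboxylesterase genes. They were followed here in lung RNA of mice that breathed cigarette smoke or room air. Each of the 5 symbols belonged to exactly 1 of the 31350 measured transcripts, so the choice of the transcript with the highest mean was never needed and no value decided which transcript stood for a gene. The set itself was selected on earlier results of these data, in which their smoke differences were known, so the smoke tests below describe them and are no independent evidence for a response of the family. Each of the 79 mice gave 1 array, and the mice formed 16 groups of 4 to 6.

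All mice were C57BL/6J, 5 to 7 weeks old at exposure. WT mice were compared with βENaC littermates (labelled Scnn1b-overexpressing, BENaC), which carry a transgene for the β subunit of the epithelial sodium channel that is expressed in airway epithelium. Mice of both sexes received the smoke of 6 reference cigarettes per day (3R4F, filters removed) or sham exposure to room air, for 1 day or for 5 consecutive days, and the right lung was taken 4 h after the last exposure. The 1-day exposure had 20 smoke and 20 sham mice, and the 5-day exposure had 19 and 20. The labels give no exposure sessions, so a difference between sessions cannot be told apart from one between durations.

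Carboxylesterases cleave esters, amides and thioesters of drugs, environmental chemicals and stored lipids, mostly in the endoplasmic reticulum of liver, gut, fat and lung. Enzymes of the Ces1 subfamily tend to favour a large acyl group with a small alcohol, and those of the Ces2 subfamily the reverse. In the mouse the Ces1 and Ces2 genes lie in separate tandem arrays on chromosome 8, and in the RefSeq annotation Ces1d, Ces1e, Ces1f, Ces1g and Ces1h follow each other in that order. Because paralogs are alike in sequence, probes for 1 gene can take signal from another. Probe sequences were not analysed here, so the values of single Ces1 genes are uncertain to that extent, and levels are not compared between genes.

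Promoter sequence is shown for 3 neighbours whose smoke differences are set apart below: Ces1g with the largest difference of the family, Ces1h with a smaller one, and Ces1e, for which no test passed. Each line is the 250 bases before the start that the RefSeq promoter table uses (GRCm38.p6), which for Ces1e lies a few bases inside the annotated gene. They are all on the minus strand, written 5′ to 3′. The windows are chr8:93337210-93337459 for Ces1g, chr8:93379778-93380027 for Ces1h and chr8:93229620-93229869 for Ces1e. Capitals in Ces1g and Ces1h mark their best local alignment, and capitals in Ces1e mark the stretch that aligned best with Ces1g.
Ces1g: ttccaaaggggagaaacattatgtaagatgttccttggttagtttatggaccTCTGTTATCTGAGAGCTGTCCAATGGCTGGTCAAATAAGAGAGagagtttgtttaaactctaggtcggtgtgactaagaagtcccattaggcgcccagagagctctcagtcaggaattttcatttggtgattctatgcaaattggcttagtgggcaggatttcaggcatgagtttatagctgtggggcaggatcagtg
Ces1h: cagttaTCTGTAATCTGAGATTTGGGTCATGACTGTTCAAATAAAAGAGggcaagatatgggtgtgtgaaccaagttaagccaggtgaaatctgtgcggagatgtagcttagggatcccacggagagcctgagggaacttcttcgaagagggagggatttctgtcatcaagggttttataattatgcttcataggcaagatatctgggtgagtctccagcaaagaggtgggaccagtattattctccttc
Ces1e: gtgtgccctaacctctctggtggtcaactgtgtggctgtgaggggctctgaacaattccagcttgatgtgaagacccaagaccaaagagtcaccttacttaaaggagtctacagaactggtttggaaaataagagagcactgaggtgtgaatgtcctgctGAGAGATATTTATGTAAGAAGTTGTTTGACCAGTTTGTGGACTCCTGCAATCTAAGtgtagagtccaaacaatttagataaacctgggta
The Ces1g and Ces1h stretches were identical at 33 of 43 aligned positions (76.7%). Ces1e aligned with Ces1g at bases 11 to 65 of the Ces1g window, over 56 columns of which 41 were identical (73.2%), and that part of Ces1g only partly overlaps the capitals shown. The alignment scores were 36 for Ces1g with Ces1h and 35 for Ces1g with Ces1e. Ces1h with Ces1e scored 19, over 13 columns of which 12 were identical. Unrelated windows were not aligned, so how unusual these identities are was not tested. The core letters TGACNNNGC of the antioxidant response element and GCGTG of the xenobiotic response element were searched on both strands. Neither was found in the windows of Ces1g, Ces1e or Ces2e, the 3 of the 5 genes with a window, nor in those of the 12 other carboxylesterase genes with one. Over all 32851 windows of this length, 10.2% held TGACNNNGC and 28.2% held GCGTG. These are letters in 250 bases and say nothing of sites elsewhere.

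Values are log2 intensities. A coefficient is the difference between the levels of 1 factor (smoke minus sham, WT minus βENaC, male minus female) on the log2 scale, with the other factors in the model. The exposure by duration model was fitted over all mice with exposure, duration and their product alone, without genotype and sex. Genes were called where the adjusted p from limma (Benjamini-Hochberg over all 31350 transcripts) was below 0.05 and the coefficient was beyond 0.379 in size, which is 1.3-fold. The titles were checked by the transgene: Scnn1b ranged from 11.52 to 11.88 in βENaC mice and from 8.42 to 9.47 in WT mice, although the source text of 13 WT smoke mice names the other genotype. Cyp1a1, the classical smoke-induced enzyme, was higher in smoke by 4.11 at 1 day and 4.59 at 5 days.

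Smoke raised Ces1g and Ces1f at both durations. Ces1g was 4.20-fold higher after 1 day and 6.08-fold higher after 5 days, and Ces1f was 1.73-fold and 1.80-fold higher. Ces1d and Ces2e passed the adjusted p at 5 days without reaching 1.3-fold, Ces1d higher and Ces2e lower. Ces1e passed neither criterion at either duration. In all, 2 of the 5 genes were called at each duration, both higher, where 0.485% of all transcripts were called higher at 1 day and 0.577% at 5 days.

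Ces1g encodes a hydrolase of triacylglycerol and cholesteryl ester that is best known from liver. At 1 day its log2 intensity in sham lungs ranged from 4.04 to 6.14 with a median of 5.07, and in smoke lungs from 5.58 to 7.91 with a median of 7.27. At 5 days sham lungs ranged from 4.13 to 5.90 (median 4.98) and smoke lungs from 5.04 to 8.35 (median 7.75). Above every sham mouse of the same duration lay 19 of 20 smoke mice at 1 day. At 5 days 18 of 19 did, so a single smoke mouse of each duration fell into the sham range. The smoke coefficient was 2.07 (SE 0.154, limma adjusted p = 6.53e-13) at 1 day and 2.61 (SE 0.160, adjusted p = 4.69e-15) at 5 days. By size these were the 7th and 4th coefficients of all transcripts.

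The values of the single mice follow for Ces1g. In WT females at 1 day the sham mice had 4.90, 4.96, 4.04, 4.71 and 4.46, and the smoke mice 7.08, 7.44, 7.45, 7.18 and 7.42. In WT males at 1 day the sham mice had 5.38, 5.64, 5.71, 5.21 and 5.54, and the smoke mice 7.91, 7.34, 7.91, 7.25 and 7.78. Neither pair of groups overlapped, and the lowest WT smoke mouse (7.08) stood well above the highest WT sham mouse (5.71). In βENaC females at 1 day the sham mice had 5.30, 4.81, 5.11, 5.04 and 4.67, and the smoke mice 6.77, 6.65, 6.50, 6.15 and 6.90. In βENaC males at 1 day the sham mice had 4.09, 4.63, 5.61, 6.14 and 5.62, and the smoke mice 5.58, 7.16, 7.74, 7.47 and 7.29. The βENaC males were the group pair that overlapped, through 1 low smoke mouse and a wide sham group.

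After 5 days the smoke mice again stood above their sham groups. WT female sham mice ranged from 4.53 to 5.28 (median 4.94, n = 6), and the smoke mice had 7.23, 8.11, 7.57, 8.16 and 8.09. WT male sham mice had 5.90, 5.01, 5.71, 5.10 and 5.20, and the smoke mice 8.18, 8.03, 8.35 and 8.02. The WT male smoke mice lay close together. βENaC female sham mice had 4.31, 4.95, 4.13 and 4.84, and the smoke mice 7.10, 7.10, 5.04, 7.75 and 7.72. βENaC male sham mice had 5.47, 4.80, 4.40, 5.52 and 5.38, and the smoke mice 7.82, 6.96, 7.88, 7.38 and 7.26. None of the 4 group pairs overlapped, but the third βENaC female smoke mouse (5.04) was barely above the highest of its sham group (4.95).

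**Figure D1:**
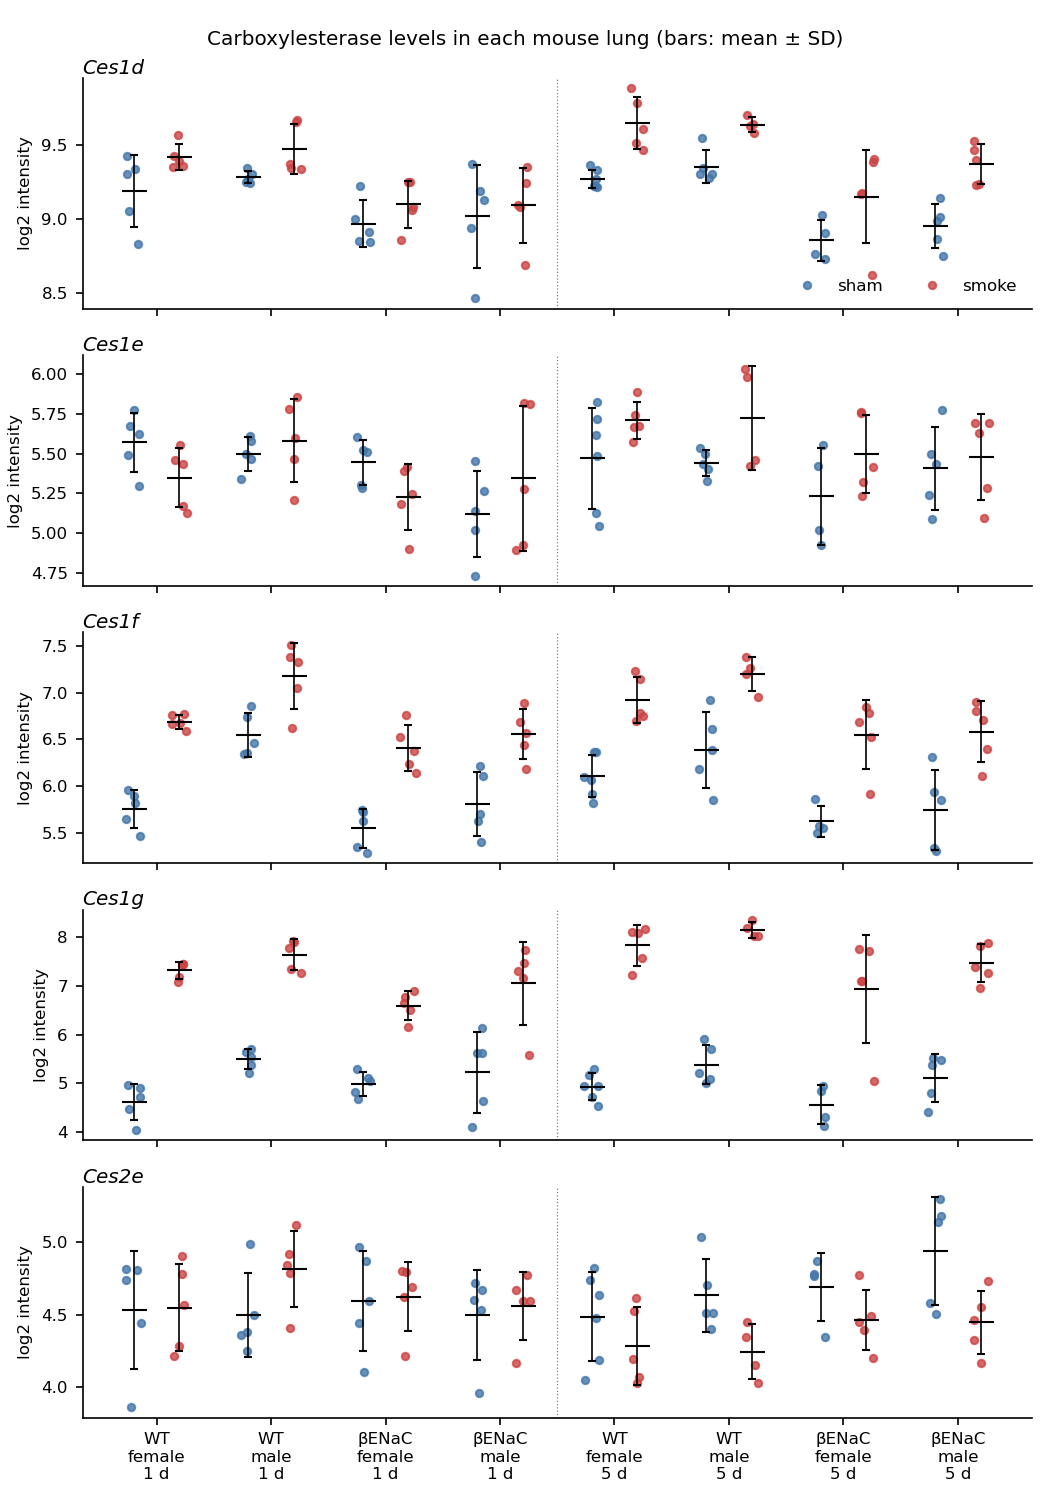
Log2 intensity of the 5 carboxylesterases (rows) in each mouse, by genotype, sex and duration in days (d) along the x axis. Blue points are sham and red points smoke mice, black bars are the mean ± SD of the 4 to 6 mice of a group, and the vertical scale differs between rows. For Ces1g, 1 smoke mouse at each duration (5.58 and 5.04) lies within the range of the sham mice and the others lie above it.

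Ces1f encodes a triacylglycerol hydrolase of the same subfamily (synonym TGH-2). At 1 day sham lungs spanned 5.29 to 6.86 (median 5.78) and smoke lungs 6.15 to 7.51 (median 6.67). At 5 days sham lungs spanned 5.31 to 6.92 (median 5.93) and smoke lungs 5.92 to 7.39 (median 6.78). The pooled ranges overlapped widely, yet all 20 smoke mice at 1 day and all 19 at 5 days lay above the mean of the sham group of their own genotype and sex. The smoke coefficient was 0.79 (SE 0.083, limma adjusted p = 7.77e-09) at 1 day and 0.84 (SE 0.093, adjusted p = 3.72e-08) at 5 days. With any single mouse left out it stayed within 0.76 to 0.82 (1 day) or 0.82 to 0.88 (5 days).

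Ces1d encodes triacylglycerol hydrolase (formerly Ces3), which releases stored triacylglycerol in liver and fat. Sham lungs spanned 8.46 to 9.43 (median 9.21) and smoke lungs 8.68 to 9.67 (median 9.34) at 1 day. At 5 days these were 8.73 to 9.54 (median 9.22) and 8.62 to 9.88 (median 9.47). The coefficient was 0.16 (SE 0.061, limma adjusted p = 0.102) at 1 day and 0.35 (SE 0.051, adjusted p = 7.66e-06) at 5 days, short of 1.3-fold. The shift was small and even: above the mean of their own sham group lay 18 of 20 smoke mice at 1 day, and 18 of 19 at 5 days. By the adjusted p alone 3 of the 5 genes were higher and 1 lower at 5 days, where 3.17% of all transcripts were higher and 3.37% lower.

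Ces2e belongs to the Ces2 subfamily (formerly Ces5). Its sham and smoke values at 1 day ranged from 3.86 to 4.99 (median 4.56) and from 4.16 to 5.12 (median 4.68). At 5 days they ranged from 4.05 to 5.30 (median 4.67) and from 4.03 to 4.77 (median 4.39), and 16 of 19 smoke mice lay below their own sham mean. The coefficient was 0.11 (SE 0.091, limma adjusted p = 0.55) at 1 day and -0.33 (SE 0.081, adjusted p = 0.00819) at 5 days. The difference between durations was tested itself and was -0.42 (95% interval -0.67 to -0.17), with an unadjusted limma p of 0.00148 and an adjusted p of 0.105, so it was not called.

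Ces1e encodes egasyn, which holds β-glucuronidase in the endoplasmic reticulum. Its sham values ranged from 4.73 to 5.77 (median 5.48) and its smoke values from 4.89 to 5.86 (median 5.40) at 1 day. At 5 days they ranged from 4.92 to 5.83 (median 5.44) and from 5.10 to 6.03 (median 5.67). The coefficients were -0.03 (95% interval -0.19 to 0.13, limma adjusted p = 0.864) and 0.21 (0.06 to 0.37, adjusted p = 0.0955). The 5-day interval reaches up to a change of 0.37.

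Of the other carboxylesterases, Ces1h alone was called for smoke. Of 14 further family members 13 had a transcript on the array, with Ces2b as the exception, and 1 was called at 1 day and 0 at 5 days (4 at an unadjusted limma p below 0.05). Ces1h, the neighbour of Ces1g, rose by 0.57 (SE 0.073, limma adjusted p = 5.52e-07) at 1 day and was higher by 0.33 (SE 0.089, adjusted p = 0.0168) at 5 days, under 1.3-fold. Ces2g was lower by -0.31 (SE 0.087, adjusted p = 0.0213) at 5 days, also under 1.3-fold and with the same sign as Ces2e. The 1-day coefficients of the 13 spanned -0.10 to 0.57 (median 0.03, beside 0.01 over all transcripts), and the 5-day ones -0.31 to 0.33 (median -0.01, beside -0.0018). The medians of the 5 genes were 0.16 and 0.35. Only 2 of the 13 lay outside the lowest 30% of transcripts by mean intensity, and Ces1h was among the low ones.

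**Figure D2:**
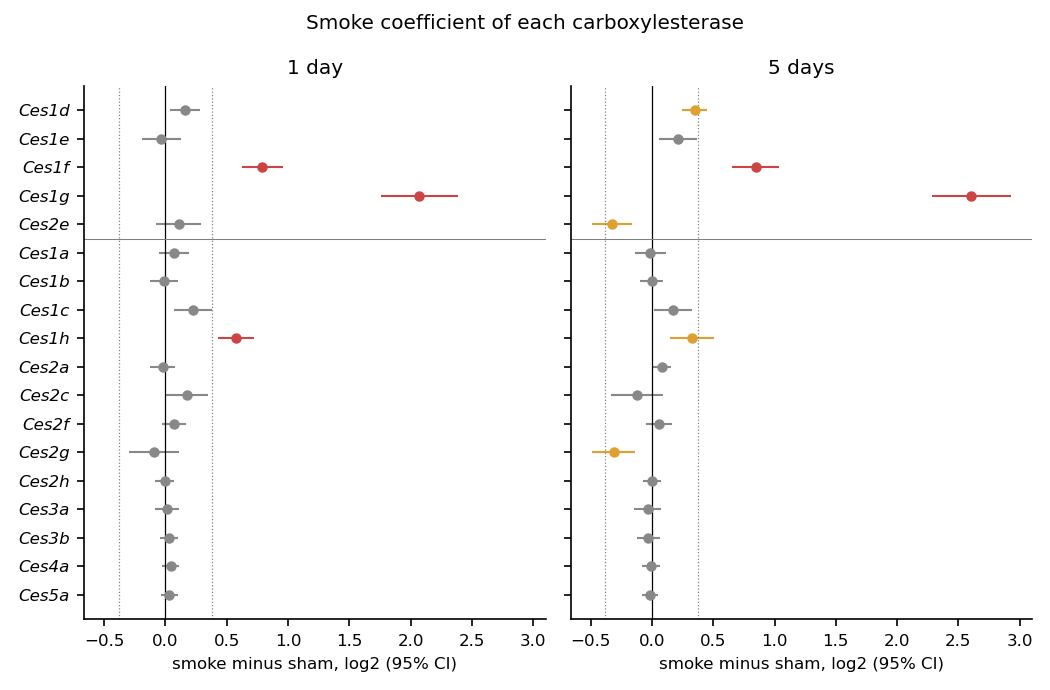
Smoke minus sham coefficient (log2, x axis) of each carboxylesterase with its 95% interval, at 1 day (left) and 5 days (right), with the 5 genes described here above the horizontal line. Red marks genes past both criteria, orange those past the adjusted p alone, grey the rest, and dotted lines stand at 0.379 on either side of 0. Ces1g (2.07 and 2.61) and Ces1f (0.79 and 0.84) are red at both durations, and Ces1h (0.57) at 1 day only.

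Of 31 other esterases and lipases measured, 0 were called for smoke at either duration, with 4 past the adjusted p alone at each, where 9.45% and 6.53% of all transcripts passed it (13 and 10 at an unadjusted limma p below 0.05). The highest coefficient was that of lipoprotein lipase, Lpl, higher by 0.33 at 1 day and 0.36 at 5 days (limma adjusted p = 6.06e-05 and 0.000723). Of 23 xenobiotic and lipid sensors and their partners, 1 was called at 1 day and 0 at 5 days (8 at an unadjusted limma p below 0.05). By the adjusted p alone 7 of 23 were higher at 1 day and 5 of 23 at 5 days, and none was lower. Of all transcripts 9.45% and 6.53% passed it in either direction. The 1 called was Ahrr, the repressor of the aryl hydrocarbon receptor, higher by 0.47 at 1 day (adjusted p = 4.49e-07) and by 0.15 at 5 days (adjusted p = 0.0321). Nfe2l2, which drives the antioxidant response, was higher by 0.27 and 0.23 (adjusted p = 1.24e-08 and 6.37e-08), under 1.3-fold.

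Within single genotypes and sexes, smoke raised Ces1g in 8 of 8 comparisons and Ces1f in 7 of 8, and no other member was called. At 1 day the Ces1g differences in WT mice were 2.70 (females) and 2.14 (males), and in βENaC mice 1.61 and 1.83 (SE 0.314 each). At 5 days the WT differences were 2.90 and 2.76, and the βENaC differences 2.39 and 2.35, with SEs from 0.3003 to 0.333. Ces1f differences ranged from 0.63 in WT males at 1 day, where the limma adjusted p was 0.0588, to 0.93. All 8 differences of Ces1d were above 0, from 0.07 to 0.42. The 4 Ces2e differences at 1 day spanned 0.02 to 0.32, and those at 5 days -0.49 to -0.20. The shares of all transcripts called higher at 1 day were 0.179% and 0.411% in WT females and males, and 0.507% and 0.574% in their βENaC counterparts. At 5 days they were 0.271%, 0.124%, 0.0606% and 0.313% in the same order.

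The smoke difference of Ces1g was larger in WT than in βENaC mice by 0.70 (95% interval 0.107 to 1.298) at 1 day and by 0.47 (-0.18 to 1.12) at 5 days. Its limma p was 0.0221 unadjusted and 0.668 adjusted at 1 day, and 0.148 and 1 at 5 days, so no difference between genotypes was called. The smoke difference of Ces1e was larger in males by 0.37 (0.07 to 0.68, unadjusted p = 0.0179, adjusted p = 0.731) at 1 day. Ces1g rose by 0.48 more at 5 days than at 1 day (-0.04 to 1.00, adjusted p = 0.512). Of the 5 genes 0 were called for any of these interactions, and 1 had an unadjusted limma p below 0.05 for exposure by genotype at 1 day, 1 for exposure by sex at 1 day, 1 for exposure by duration and 0 at 5 days. Over all transcripts, 2 (0.00638%) were called for each interaction at 1 day, 0 (0%) for each at 5 days, and 74 (0.236%) for exposure by duration.

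**Figure D3:**
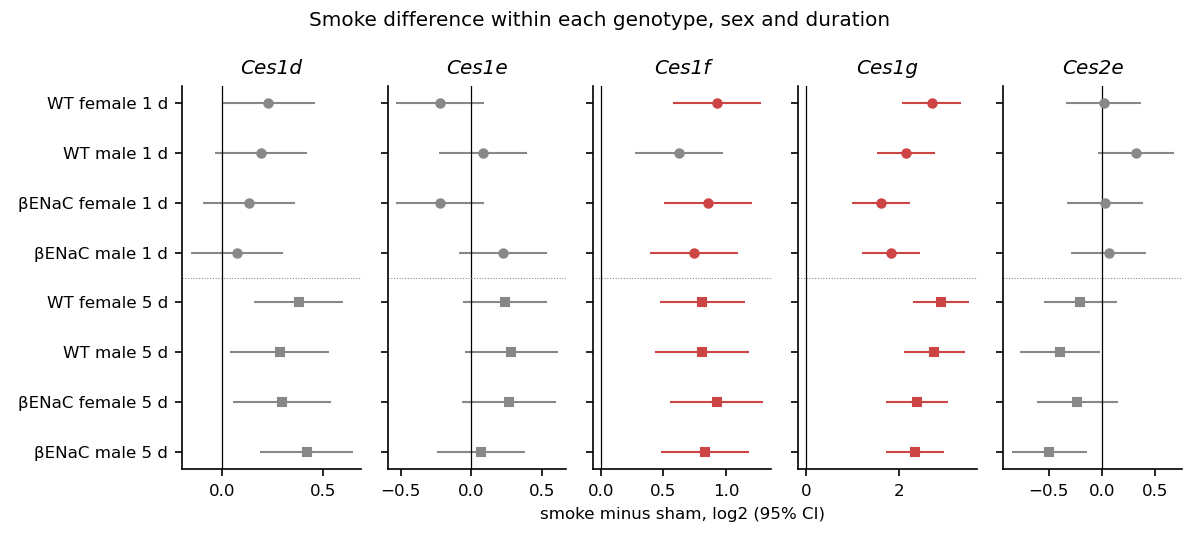
Smoke minus sham difference (log2, x axis, with 95% interval) within each genotype, sex and duration in days (d), for the 5 genes, with circles for 1 day, squares for 5 days and red for differences past both criteria. The horizontal scale differs between panels. Ces1g is red in 8 of 8 rows and Ces1f in 7 of 8, while the intervals of Ces1e include 0 in every row.

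Genotype differences were called for Ces1f at both durations and for Ces1d and Ces1g at 5 days. WT lungs had more Ces1f than βENaC lungs at both durations, by 0.46 (SE 0.083, limma adjusted p = 0.000243) and 0.52 (SE 0.094, adjusted p = 0.000128). Ces1d was higher in WT by 0.30 (SE 0.061, adjusted p = 0.00114, under 1.3-fold) at 1 day and by 0.40 (SE 0.051, adjusted p = 3.6e-07) at 5 days. Ces1g was higher in WT by 0.55 (SE 0.160, adjusted p = 0.0201) at 5 days, and its 1-day coefficient of 0.30 (SE 0.154) had an adjusted p of 0.306. The 5-day call of Ces1g was lost without 4 mice left out together (0.37, under 1.3-fold, limma adjusted p = 0.0387). That of Ces1d was lost too (0.34, adjusted p = 4.5e-08), which left 1 of 5 called. Among the 4 were the third βENaC female smoke mouse at 5 days (Ces1g 5.04, Ces1d 8.62) and a WT female smoke mouse. The latter had the highest Ces1d at 5 days (9.88), so the set held extremes of these genes. Called higher in WT were thus 1 of 5 genes at 1 day and 3 of 5 at 5 days, beside 0.418% and 0.651% of all transcripts.

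The genotype difference of Ces1d was small and even. At 1 day WT mice spanned 8.83 to 9.67 (median 9.35) and βENaC mice 8.46 to 9.37 (median 9.08). At 5 days WT mice spanned 9.22 to 9.88 (median 9.41) and βENaC mice 8.62 to 9.52 (median 9.14), so the ranges overlapped at both durations. In Ces1d, Ces1e and Ces1f the WT mean was the higher in 4 of 4 pairs of groups matched for exposure and sex, at each duration. Ces1e coefficients were 0.22 and 0.18 (limma adjusted p = 0.111 and 0.142), and those of Ces2e 0.03 and -0.23 (adjusted p = 0.919 and 0.0688). Without the third βENaC female smoke mouse the 5-day Ces1d coefficient was 0.37 (adjusted p = 2.25e-08), just under 1.3-fold.

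Among the other carboxylesterases, Ces2c was lower in WT than in βENaC lungs by -0.47 (SE 0.104, limma adjusted p = 0.00185) at 5 days, where 1.87% of all transcripts were called lower, and 0 of 13 were called at 1 day (2 at an unadjusted limma p below 0.05). Of the 31 other esterases and lipases, Pon1, a paraoxonase of lipoproteins, was higher in WT by 0.64 and 0.82 (adjusted p = 0.000207 and 3.32e-06). Lipa, the lysosomal acid lipase, had coefficients of -0.41 and -0.52 (adjusted p = 3.9e-05 and 8.28e-08). At 1 day 1.13% of all transcripts were called lower in WT.

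Club cell markers moved with genotype as well. In whole lung, fewer cells of a type and less RNA per cell cannot be told apart. Of 6 club cell markers measured 5 were higher in WT by the adjusted p at each duration, beside 2.29% of all transcripts at 1 day and 5.33% at 5 days, and 3 were called at 5 days. The mean of these 6 ranged from 10.36 to 10.93 at 5 days, and Scgb1a1, their defining gene, was higher in WT by 0.06 and 0.07. Scgb1a1 had a mean of 13.19, near the highest value on any array (13.41), so its small coefficients are hard to read. Of 8 ciliated markers 1 was higher and 1 lower in WT by the adjusted p at 1 day, and 2 were higher at 5 days. Other cell types differed too. Of 7 alveolar macrophage markers 2 were called higher and 3 lower in WT at each duration. The shares of all transcripts were 0.418% and 1.13% at 1 day and 0.651% and 1.87% at 5 days. Of 7 alveolar type 2 markers 3 were lower by the adjusted p at each duration. The share of all transcripts lower in WT by the adjusted p alone is not given here. How unusual the counts of lower markers are therefore cannot be read from them. The means of the club and ciliated markers were then used as terms, an alternative added after seeing the data. The 5-day genotype coefficients were 0.05 for Ces1d (SE 0.128), 0.48 for Ces1f (SE 0.266) and 0.38 for Ces1g (SE 0.361). Their limma adjusted p were 0.948, 0.581 and 0.802, with SEs larger than the 0.051, 0.094 and 0.160 without these terms. Only 15 transcripts (0.0478%) were called for genotype in that fit. At 1 day the genotype coefficients of Ces1d and Ces1f were 0.45 (SE 0.112) and 0.37 (SE 0.164), with limma adjusted p of 0.0336 and 0.279. Club markers themselves differed by genotype, so this fit cannot tell airway cells from genotype. The part of airway cells in the genotype difference was not tested.

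Airway markers were also compared between smoke and sham lungs. At 1 day 3 of 6 club and 3 of 8 ciliated markers were lower in smoke lungs by the adjusted p, and at 5 days 0 of either were past it (3 and 3 at an unadjusted limma p below 0.05, all 6 higher in smoke). Past the adjusted p in either direction were 9.45% of all transcripts at 1 day and 6.53% at 5 days. The mean of the 8 ciliated markers spanned 7.22 to 7.81 in sham and 7.14 to 7.62 in smoke lungs at 1 day. At 5 days it spanned 7.22 to 7.90 and 7.11 to 7.87. The mean of 9 liver markers, a tissue rich in these enzymes, spanned 3.86 to 4.31 in sham and 4.02 to 5.26 in smoke lungs at 1 day, and 4.04 to 4.51 and 4.04 to 5.27 at 5 days. By the adjusted p 0 of 9 passed at either duration, and their part in the smoke difference was not tested. With the club and ciliated marker means as terms the smoke coefficients were 2.29 (SE 0.196) and 2.52 (SE 0.118) for Ces1g. For Ces1f they were 0.97 (SE 0.107) and 0.81 (SE 0.087). Both genes passed both criteria in that fit, beside 1.4% of all transcripts called for exposure at 1 day and 0.947% at 5 days. Airway markers themselves differed by smoke at 1 day, so this fit cannot tell airway cells from smoke. The part of airway cells in the smoke difference was not tested.

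Sex made a difference at 1 day. Ces1f was higher in males by 0.42 (SE 0.083, limma adjusted p = 0.00054) and Ces1g by 0.47 (SE 0.154, adjusted p = 0.0424), so 2 of 5 genes were called beside 0.651% of transcripts called higher in males. At 5 days 0 of 5 were called (1 at an unadjusted p below 0.05) beside 0.147%: the Ces1g coefficient was 0.47 again (SE 0.160, adjusted p = 0.197) and that of Ces1f 0.18 (SE 0.093, adjusted p = 0.473). The male mean was the higher in 4 of 4 pairs of groups for both genes at both durations. Whether the sex difference differed between durations was not tested. The 1-day call of Ces1g was lost when any 1 of 22 of the 40 mice was left out, with adjusted p from 0.0032 to 0.0707 over the 40 fits. Sex coefficients of the other 3 genes lay between -0.01 and 0.10.

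**Figure D4:**
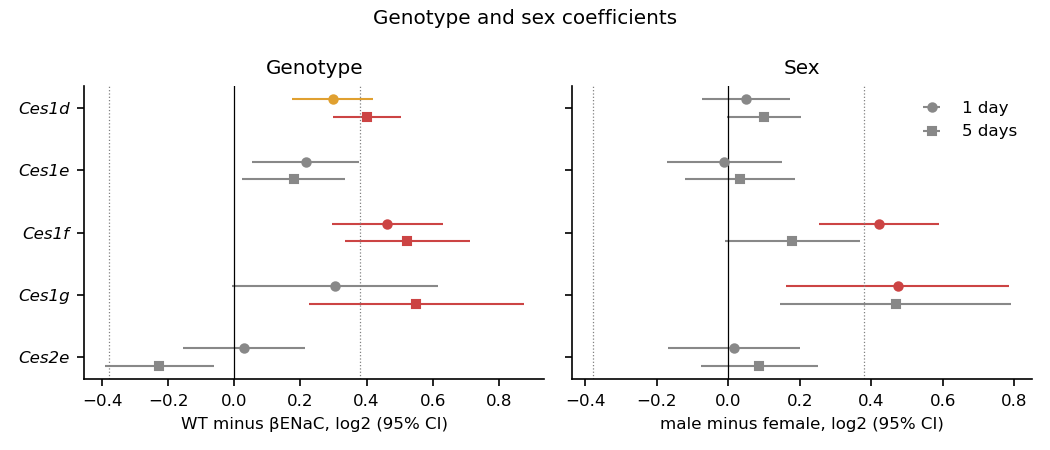
WT minus βENaC (left) and male minus female (right) coefficients of the 5 genes on the log2 scale with 95% intervals, circles for 1 day and squares for 5 days. Red marks coefficients past both criteria, orange past the adjusted p alone, grey the rest, and dotted lines stand at 0.379 on either side of 0. Ces1f is red for genotype at both durations (0.46 and 0.52), and Ces1f and Ces1g are red for sex at 1 day (0.42 and 0.47).

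Beyond the group differences, Ces1d, Ces1f and Ces1g varied together from mouse to mouse. Deviations of the 79 mice from their 16 group means were correlated for the 10 pairs of genes, with permutation tests of 100000 resamples within groups and Benjamini-Hochberg adjustment over the 10 pairs. Ces1d and Ces1g had Pearson r = 0.689 (adjusted p = 2e-04) and Spearman rho = 0.528 (adjusted p = 0.00145), with r = 0.686 at 1 day and 0.713 at 5 days. Ces1f and Ces1g had r = 0.555 (adjusted permutation p = 0.00025) and rho = 0.466 (adjusted p = 0.00145). Ces1d and Ces1f had r = 0.39 (adjusted permutation p = 0.0095) and rho = 0.347 (adjusted p = 0.0208). Without the 2 mice farthest from the median of the first-named gene of each pair these r were 0.576, 0.491 and 0.272. Those 2 mice were chosen by that gene alone, so mice far off in Ces1g could remain. Ces1e had r = 0.35 with Ces1d (adjusted permutation p = 0.0164), with rho = 0.274 (adjusted p = 0.0675). Its pairs with Ces1f (r = 0.227) and Ces1g (r = 0.289) did not pass (adjusted permutation p = 0.113 and 0.0846). Of the 4 pairs with Ces2e none passed, with r from 0.0515 to 0.182 (adjusted permutation p from 0.187 to 0.683). Shared probe signal between the paralogs was not tested as a part of these correlations.

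The same deviations were set against the mean of each of 9 lists of cell type markers, 45 relations in all. Ces1g varied with the ciliated markers (r = 0.669, rho = 0.481, adjusted permutation p = 0.00203 for r) and with the club markers (r = 0.528, rho = 0.437, adjusted p = 0.00225). It varied against the alveolar macrophage markers (r = -0.526, rho = -0.408, adjusted permutation p = 0.00225) and the alveolar type 2 markers (r = -0.464, rho = -0.355, adjusted p = 0.00225). Without the 2 mice farthest from the median of Ces1g these were 0.508, 0.43, -0.402 and -0.36, so they kept their sign and became smaller. Within durations the ciliated r was 0.505 at 1 day and 0.806 at 5 days. Ces1d and Ces1f had r of 0.575 and 0.536 with the ciliated markers, while Ces2e had 0.135 (adjusted permutation p = 0.497). Ces1e had 0.323 (adjusted permutation p = 0.039 for r and 0.107 for rho). Ces1d and Ces1f also passed with the club markers (r = 0.448 and 0.439). Both passed against the alveolar type 2 (-0.384 and -0.435) and the alveolar macrophage markers (-0.415 and -0.38). Ces1e passed with markers of lipid-storing fibroblasts (r = 0.332, adjusted permutation p = 0.0268). Ces1f also varied with the white fat markers (r = 0.394, rho = 0.389, adjusted permutation p = 0.00382 for r). With the liver markers, no member exceeded 0.139 in size (adjusted permutation p from 0.462 to 0.982).

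**Figure D5:**
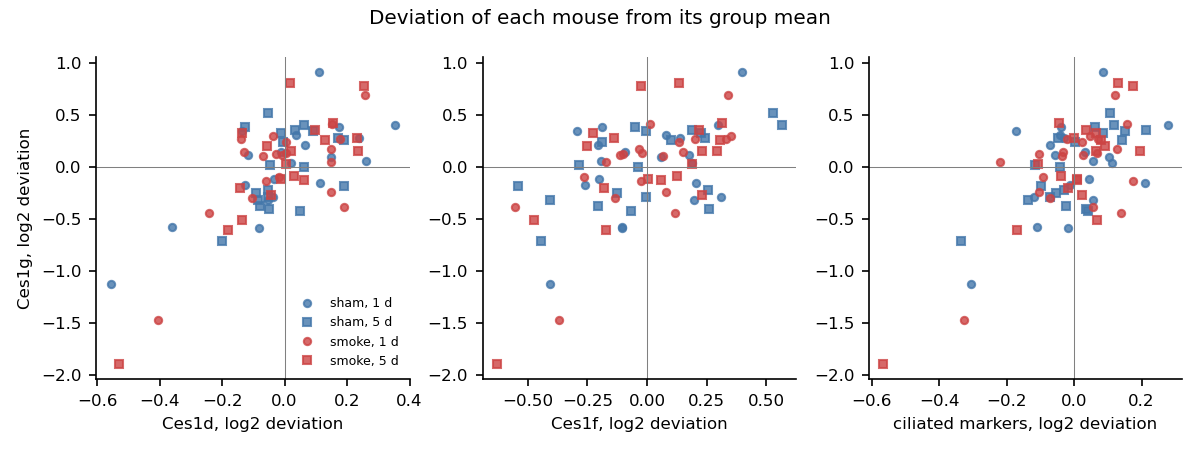
Deviation of each mouse from its group mean (log2) for Ces1g (y axis) against Ces1d, Ces1f and the mean of 8 ciliated cell markers (x axes), with blue for sham, red for smoke, circles for 1 day and squares for 5 days. The mice spread along a rising line in the 3 panels (r = 0.689, 0.555 and 0.669), and 3 mice with Ces1g more than 1 below their group mean lie at the lower left of each.

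The transcripts most like each gene were taken by Pearson r over the 16 group means, as a description. Ces1g was most like Aox1 (0.976), an aldehyde oxidase, Ugt1a1 (0.968), a glucuronosyltransferase, and Nqo1 (0.963), a quinone reductase. Nqo1 had smoke coefficients of 2.87 and 2.64, and Aox1 of 0.58 and 0.69. Ces1f was most like Scnn1a (0.937), the α subunit of the epithelial sodium channel, Arnt (0.936) and Tmtc1 (0.935). Ces1d was most like Cfl2 (0.943), Cyp39a1 (0.94) and Gsta3 (0.933), the last a glutathione transferase with smoke coefficients of 0.32 and 0.82. Ces1e was most like Exph5 (0.884), Snord42a (0.875) and Sod1 (0.87), and Ces2e like Ppp1r10 (0.818), 4921522H14Rik (0.796) and Vgll4 (0.791).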

How the data were processed

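Right lung RNA of 79 mice was measured on Affymetrix moGene2.1 arrays, 1 array per mouse. The deposited values are log2 intensities. The authors made them by RMA, with quantile normalization, median polish and corrections for probe sequence and GC content, and removed 1 mislabelled array. Expression Console 1.4 and Partek 6.6 are named in the submitters' processing notes. Arrays carry no counts, so precision rests on how many arrays there are. No normalization was added. The 31350 transcripts were named from the supplementary tables of the paper (2537) and then from RefSeq by accession (19300). The members and lists were chosen with earlier results of these data known.

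Groups came from titles. Each duration was fitted with limma 3.58.1 in R 4.3.3 (genotype, exposure and sex as terms), then with both exposure interactions. Exposure by duration was fitted over all mice without genotype or sex terms, and single group pairs with 16 group means. Standard errors are limma's moderated ones. The fits were tested on simulated data. Promoters came from the RefSeq window table. Ces1d and Ces1f have no entry there. Promoters were compared by local alignment with gaps allowed. Other software was version 1.17.8 of data.table, Python 3.11.15 and matplotlib 3.10.9.

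Every member was named, other carboxylesterases where past both criteria in a comparison, other hydrolases and sensors where past both for exposure, Scnn1b and Cyp1a1 as checks, and the 3 transcripts most like each member. Ces2g, Lpl, Nfe2l2, Pon1, Lipa and Scgb1a1 were chosen after their values were seen. Alternatives were the ordinary linear model, 1 fit over all mice, median centring, quantile and cyclic loess normalization, low transcripts left out, 1 transcript per symbol, array weights, trended robust variances, a replicate block, no or a 1.5-fold threshold, each mouse left out and 4 mice that stood apart left out together. Nothing says that mice of a group came from separate cages or litters, so p-values measure the spread between these mice.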

Additional observations from a re-analysis of the deposited data

Results flagged for a closer look

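In 4 of the 80 combinations of 5 genes and 16 groups, 1 mouse lay farther from the rest of its group than Dixon's test at 95% allows, where chance gives about 1 in 20. Ces1g was at 5.04 in the third βENaC female smoke mouse at 5 days, beside 7.10 to 7.75 in the other 4. That mouse had the lowest mean of the ciliated markers of its group (7.11 beside 7.74 to 7.87), the lowest club marker mean (10.36 beside 10.55 to 10.63) and a Cyp1a1 level of 9.96 beside 10.89 to 11.35. Ces1g was at 5.58 in the first βENaC male smoke mouse at 1 day, beside 7.16 to 7.74, with ciliated markers at 7.14 beside 7.49 to 7.62 and Cyp1a1 at 10.89 beside 11.09 to 11.40. Ces2e was at 3.955 in the first βENaC male sham mouse at 1 day, beside 4.53 to 4.72, and the other 4 members were also lowest in that mouse, with ciliated markers at 7.22 beside 7.49 to 7.80. Ces1d was at 9.545 in the fifth WT male sham mouse at 5 days, beside 9.28 to 9.34, and its Ces1f, at 5.85, was the lowest of that group while its Ces2e, at 5.04, was the highest. The part of airway cells in these values was not tested.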

How the results depend on the processing

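Of 577 values of single members under alternatives other than leaving out 1 mouse, 541 kept their direction and their side of the thresholds. Smoke called 2 of 5 members under every alternative run, apart from 4 at 5 days with no fold threshold, and also 2 without any 1 mouse. Without a fold threshold genotype called 2 members at 1 day, and 2 other carboxylesterases were called for exposure and 2 for genotype at 5 days. With a 1.5-fold threshold genotype called 0 members at either duration and sex 0 at 1 day. With that threshold 0 other carboxylesterases were called for exposure at 1 day or genotype at 5 days. Both counts were also 0 with the lowest 30% of transcripts left out, but that filter kept only 2 other carboxylesterases. It removed Ces1h and Ces2c themselves, so it could not test their calls. The 1-day sex count was 1 under the ordinary linear model, median centring, quantile and cyclic loess normalization, and 1 to 2 with 1 mouse left out. Of 14 alternatives other than leaving out 1 mouse, 10 kept the 5-day genotype call of Ces1d. For Ces1g 11 kept it, and for Ces1f 12. The 5-day genotype count was 1 without the 4 mice and 2 to 3 with 1 mouse left out. With airway markers as terms, added after seeing the data, it was 0 (other carboxylesterases 0), and the 5-day sex count was 1. Signs turned only in coefficients that were not called. Ces1f exposure by genotype at 1 day was 0.015 (median centring), 0.037 (quantile), 0.041 (without the 4 mice) and 0.066 (airway terms). Ces1e sex at 1 day was 0.022 (array weights), 0.020 (without the 4 mice) and 0.0084 (airway terms). Without the 4 mice Ces2e genotype at 1 day was -0.0027 and Ces1d exposure by sex at 5 days -0.043. With airway terms Ces1e was 0.15 for exposure at 1 day and -0.047 for genotype at 5 days, Ces1d 0.031 for exposure by genotype at 5 days and -0.060 for exposure by duration, and Ces1f -0.28 for the latter. With 1 mouse left out, 1-day ranges were -0.0027 to 0.066 (Ces2e genotype), -0.042 to 0.020 (Ces1e sex), -0.021 to 0.048 (Ces2e sex), -0.075 to 0.041 (Ces1f exposure by genotype) and -0.11 to 0.0014 (Ces1d exposure by sex). At 5 days they were -0.092 to 0.0059 (Ces1d exposure by genotype), -0.052 to 0.053 (Ces1d exposure by sex), -0.13 to 0.010 (Ces1f exposure by sex) and -0.32 to 0.018 (Ces1g exposure by sex), and -0.039 to 0.059 for Ces1f exposure by duration. The cause was not tested. Deviations of smoke and sham mice with the same replicate number had mean r = 0.016 (38 pairs, 10 above 0.1). Pairs with different numbers had mean r = -0.00338 (157 pairs, 26 above 0.1). A replicate block changed no call, with 2 members called for exposure at each duration. No other transcript of a member existed to be tried.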
